A study of Mus musculus with 9 samples.

Results

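The nucleus and the cytoplasm of MTR4-null mouse oocytes were compared gene by gene in total RNA. Of the 23235 gene symbols in the deposited table, 12998 had an FPKM (fragments scaled to transcript length and library size) of at least 1 in the MTR4-null nucleus, the MTR4-null cytoplasm or both, and these genes are described here. Near that limit, Vwa5b2 (1.001 FPKM in the nucleus, 0.342 in the cytoplasm) was just inside and E2f8 (0.9993 and 0.588 FPKM) just outside. The difference of a gene is log2 of (nucleus + 1) over (cytoplasm + 1), so a positive value means a higher FPKM in the nucleus. The oocytes came from mice of day 21, and each was parted into nucleus and cytoplasm by micromanipulation, with 10 nuclei or 10 cytoplasms in a sample. The labels list 2 MTR4-null nucleus, 2 MTR4-null cytoplasm, 3 WT nucleus and 2 WT cytoplasm libraries and do not say whether these came from separate animals. The table gives 1 pooled column for each of these 4 groups, so no difference below has an error, a replicate check or a test. The exons missing from the null allele and the promoter that drives its deletion are not given in the sources used here.

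MTR4 is an RNA helicase that unwinds nuclear transcripts and feeds them to the RNA exosome. The exosome degrades promoter transcripts, enhancer RNAs and excised introns, and it trims the ends of ribosomal RNA, small nucleolar RNAs and telomerase RNA. Small nucleolar RNAs (snoRNAs) are cut out of introns in most cases and stay in the nucleolus, where C/D box snoRNAs direct ribose methylation and H/ACA box snoRNAs direct pseudouridylation of ribosomal RNA. The fully grown oocyte stores large amounts of maternal mRNA in its cytoplasm, and its nucleus is the germinal vesicle.

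The transcript of Mtr4, under its older symbol Skiv2l2, had 2.91 FPKM in nuclei and 2.51 FPKM in cytoplasms of MTR4-null oocytes, against 16.2 and 21.6 FPKM in the WT compartments. All 14 oocyte markers reached 1 FPKM in both MTR4-null columns, and their FPKM summed to 14145 in the nucleus and 8499.9 in the cytoplasm. The 20 granulosa and cumulus markers summed to 135 and 94.4 FPKM, with 15 and 12 of them at 1 FPKM or more and none listed at 0, led by Serpine2 at 64.8 and 44.3 FPKM. The 10 theca and stroma markers summed to 12.4 and 6.84 FPKM, with Insl3 of theca cells listed at 0 in the nucleus. The 8 blood markers summed to 0.688 and 3.70 FPKM, with 4 and 2 of them listed at 0, among them the haemoglobin genes Hbb-b1 and Hba-a1 in both columns. The 4 endothelium markers summed to 14.7 and 7.33 FPKM. The part of other cells in the differences below was not tested, and fewer cells of a type and less RNA per cell cannot be told apart in bulk columns.

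Most genes had a higher FPKM in the MTR4-null nucleus than in the MTR4-null cytoplasm. The median log2 difference over the 12998 genes was 0.57, a ratio of 1.48, and the middle 50% of genes lay between 0.23 and 0.88. The nuclear value was the higher one for 11003 genes (84.7%). With 2-fold as the limit, 2428 genes (18.7%) were higher in the nucleus and 262 genes (2.02%) in the cytoplasm. Nuclear genes made up 90.3% of these, but 43.6% after each difference was centred on the median of 0.57, when 643 genes (4.95%) were higher in the nucleus and 832 (6.40%) in the cytoplasm. The 2 columns differ in composition. Small RNA genes took 53.5% of all nuclear FPKM and 39.0% of all cytoplasmic FPKM, and the remaining genes summed to 410095 and 264074 FPKM, a ratio of 1.55. FPKM gives shares of a library and not amounts per compartment, so differences are read below against the median of 0.57.

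**Figure D1:**
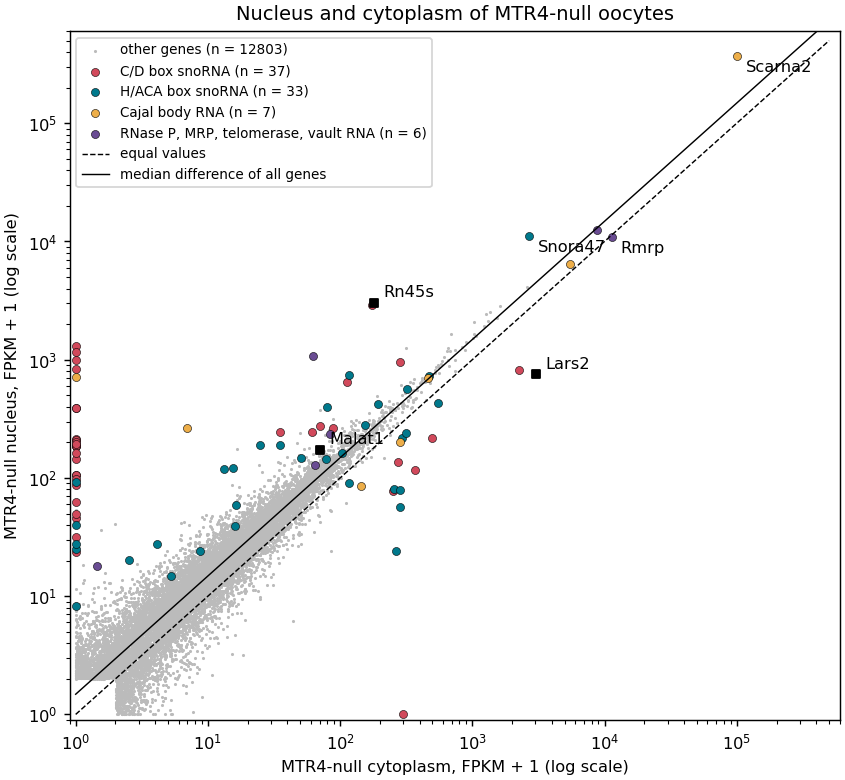
Each point is 1 gene, with FPKM + 1 of the MTR4-null cytoplasm on the horizontal and of the MTR4-null nucleus on the vertical log axis. Coloured points are small nuclear RNA classes, black squares are Rn45s, Lars2 and Malat1, the dashed line marks equal values and the solid line the median log2 difference of 0.57. Most genes follow the solid line, whereas 24 of 37 C/D box snoRNAs stack at the left edge, where the cytoplasm is listed at 0. MicroRNA genes, of which 60 of 110 are also listed at 0 there, are not plotted. The spliceosomal RNA genes Rnu11 and Rnu12 are not plotted either.

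Many small nucleolar RNAs stood far from that line, but 24 of 37 C/D box snoRNAs passed 1 FPKM through the nucleus alone. Above 0 in both columns, the median log2 difference was 1.67 over 12 C/D box and 1.197 over 28 H/ACA box snoRNAs. The 8 below are shown because they carry the pattern: Snord37 and Snord90 had high nuclear values, Snord71 was higher in the cytoplasm, Snord15a and Snord15b come from the same host gene and lie on opposite sides, and Snora47, Snora24 and Snora31 span the H/ACA class. The sequences are from GENCODE M21 (GRCm38), 5′ to 3′ on the transcript's strand. Capitals mark the letters TGATGA (core of the C box) within the first 30 bases and CTGA (the D box) within the last 30 of C/D snoRNAs, and ACA within the last 8 bases of H/ACA snoRNAs, all searched on the transcript's strand only.
Snord37: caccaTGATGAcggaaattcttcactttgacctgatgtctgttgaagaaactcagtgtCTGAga
Snord90: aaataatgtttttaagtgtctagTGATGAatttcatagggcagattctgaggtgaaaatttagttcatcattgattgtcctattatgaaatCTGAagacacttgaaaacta
Snord71: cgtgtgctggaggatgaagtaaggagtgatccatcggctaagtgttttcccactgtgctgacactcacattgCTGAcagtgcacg
Snord15a: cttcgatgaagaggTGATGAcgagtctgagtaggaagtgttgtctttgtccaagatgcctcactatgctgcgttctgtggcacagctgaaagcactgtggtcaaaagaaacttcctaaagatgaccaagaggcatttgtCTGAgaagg
Snord15b: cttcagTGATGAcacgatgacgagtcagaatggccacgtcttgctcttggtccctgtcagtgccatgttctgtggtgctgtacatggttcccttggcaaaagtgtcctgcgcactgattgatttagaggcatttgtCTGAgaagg
Snora47: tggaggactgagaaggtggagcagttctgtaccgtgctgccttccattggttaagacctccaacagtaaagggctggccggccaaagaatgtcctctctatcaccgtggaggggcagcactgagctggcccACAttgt
Snora24: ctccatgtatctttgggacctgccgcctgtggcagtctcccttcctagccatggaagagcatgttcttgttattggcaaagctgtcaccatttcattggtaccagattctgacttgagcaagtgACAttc
Snora31: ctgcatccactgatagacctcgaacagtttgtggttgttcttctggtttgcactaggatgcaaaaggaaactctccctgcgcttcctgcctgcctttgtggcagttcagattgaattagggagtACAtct
Each lies in an intron of its host gene on the host's strand: Snord37 in Eef2 (chr10:81178950-81179013, plus strand), Snord90 in Rc3h2 (chr2:37400047-37400157, minus) and Snord71 in Ap1g1 (chr8:109839295-109839379, plus). Snord15a (chr7:99482785-99482932, minus) and Snord15b (chr7:99479563-99479707, minus) lie in introns of Rps3, and 107 of 162 aligned positions (66.0%) are identical between them. Snora47 lies in Zbed3 (chr13:95330600-95330737, plus), Snora24 in the noncoding Snhg8 (chr3:123507937-123508066, minus) and Snora31 in Tpt1 (chr14:75847905-75848034, plus). Over all C/D snoRNAs of GENCODE, 73.2% of 97 hold TGATGA and 99.0% hold CTGA in these windows, and 95% of 40 H/ACA snoRNAs hold ACA. Of the 37 C/D and 33 H/ACA snoRNAs measured here, 73.0%, 97.3% and 93.9% do.

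The table lists 69 C/D box snoRNAs, of which 37 passed 1 FPKM in an MTR4-null column, and 31 of these were 2-fold or more nuclear and 5 cytoplasmic. As 24 passed through the nucleus alone, the filter fixed the side of most of them. Snord37 stood at 1303 FPKM in the nucleus, Snord90 at 1156, Snord69 at 1003 and Snord73a at 841, and all 4 were listed at 0 in the cytoplasm. Of the 37, 1, Snord45c, was listed at 0 in the nucleus with 299.5 FPKM in the cytoplasm. Where both columns were above 0, in 12 C/D snoRNAs, 7 were nuclear by 2-fold, 4 were cytoplasmic and the median log2 difference was 1.67. Snord85 led them with a nuclear FPKM of 2908 and a cytoplasmic FPKM of 173. On the other side, Snord71 stood at 819 and 2266 FPKM, a log2 difference of -1.47. The pair from Rps3 split: Snord15b stood at 275 FPKM (nucleus) and 69.1 FPKM (cytoplasm), and Snord15a at 76.2 and 249. Reads from parts that the pair share could have been divided between them, so their opposite sides are uncertain.

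H/ACA box snoRNAs, at 121 to 196 nt, had values in both columns in most cases. Of 33 that passed 1 FPKM, 20 were nuclear and 4 cytoplasmic by 2-fold, and 9 were neither. Snora47 was the most abundant, with 11096 FPKM on the nuclear and 2688 on the cytoplasmic side. Snora24 stood at 91.2 FPKM in the nucleus and was listed at 0 in the cytoplasm, as were 4 others. Over the 28 H/ACA snoRNAs above 0 in both columns the median log2 difference was 1.197 and 15 were nuclear by 2-fold, with Snora28 at 739.6 and 116 FPKM and Snora68 at 564 and 320.3 FPKM. The 4 that were cytoplasmic by 2-fold were Snora7a (23.1 FPKM in the nucleus, 263 in the cytoplasm), Snora31 (56.3 and 281), Snora33 (78.3 and 284) and Snora26 (79.9 and 256).

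The host genes of these RNAs lay near the median of all genes. Values were available for the host of 68 of the 77 snoRNAs and small Cajal body RNAs, with a host counted once for each RNA it holds. The host median was 0.65, with 12 RNAs in a host that was nuclear by 2-fold and 0 in a host that was cytoplasmic by 2-fold. Of the 77, 30 were listed at 0 in the cytoplasm and passed the filter through the nucleus alone, so their spread cannot be set against that of hosts. Over the 46 above 0 in both columns the median was 1.197, with 24 nuclear and 8 cytoplasmic by 2-fold. Eef2, the translation elongation factor that hosts Snord37, had a nuclear FPKM of 185 and a cytoplasmic FPKM of 133. Snhg8, whose spliced product is a noncoding RNA, was one of the nuclear hosts at 12.6 and 1.26 FPKM. Tpt1, which hosts the cytoplasm-side Snora31, had a log2 difference of 0.47.

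**Figure D2:**
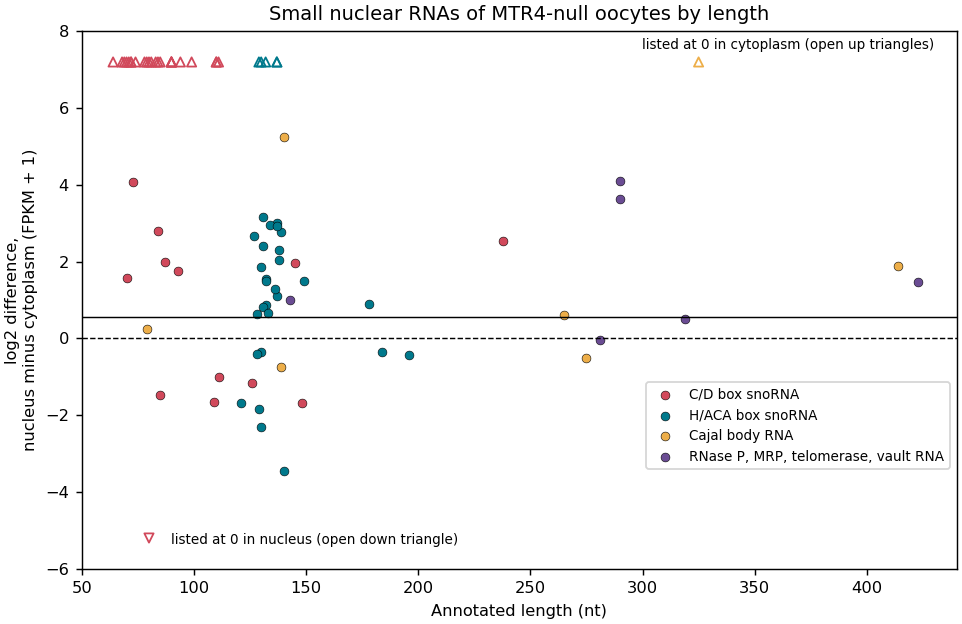
The log2 difference of FPKM + 1 (nucleus minus cytoplasm, vertical axis) is plotted against annotated length in nucleotides for 4 classes of small nuclear RNA in MTR4-null oocytes. Open triangles mark RNAs listed at 0 in a column and have no plotted difference, the solid line is the median of all genes (0.57) and the dashed line marks 0. The 24 C/D snoRNAs listed at 0 in the cytoplasm are all under 120 nt.

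Length bears on how these values can be read. The libraries were selected for cDNA of 300 to 400 bp, and 33 of the 37 C/D snoRNAs are under 120 nt. All 24 C/D snoRNAs listed at 0 in the cytoplasm are among them, while the 4 of 120 nt or more were above 0 in both columns, 2 of them higher on each side by 2-fold. In the nucleus, 35 of 185 small RNA genes at 1 FPKM or more (18.9%) shared their exact FPKM with another small RNA gene, as Snord12 and Snord34 did at 389 FPKM, against 16 of 12345 other genes. In the cytoplasm 0 of 103 small RNA genes did. The part of fragment length in the zeros was not tested.

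Small Cajal body RNAs, which guide modification of spliceosomal RNA, included the most abundant entry of both columns. Scarna2 had 370466 FPKM in MTR4-null nuclei and 100235 FPKM in their cytoplasms, or 42.1% and 23.1% of the column sums. Scarna10 stood at 711 FPKM in the nucleus and was listed at 0 in the cytoplasm, and Scarna3a stood at 266 and 5.99 FPKM. Scarna6, at 700.1 and 458 FPKM, lay close to the median of all genes. Scarna17, at 6443 and 5452 FPKM, lay below that median, with a log2 difference of 0.24. Scarna13 (200.5 and 284 FPKM) and Scarna3b (84.3 and 142 FPKM) were higher in the cytoplasm. So 3 of the 7 were at least 2-fold nuclear, among them Scarna10 with its cytoplasm listed at 0, and 0 were cytoplasmic. After centring these counts were 3 and 2. Of the minor spliceosome, the U11 gene Rnu11 stood at 1577 and 366 FPKM, and the U12 gene Rnu12 at 654 and 1099.5 FPKM.

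The RNA subunits of RNase P and RNase MRP, the enzymes that trim transfer RNA and ribosomal RNA precursors, lay below the median of all genes, with nuclear and cytoplasmic values close to each other. Rmrp had 11013 FPKM in MTR4-null nuclei and 11312 FPKM in their cytoplasms, a log2 difference of -0.04. Rpph1 stood at 12556 and 8822 FPKM, a difference of 0.51, under the median of all genes. The RNase P-like genes Rprl3 (1066.5 and 61.7 FPKM) and Rprl2 (16.9 and 0.443 FPKM) were strongly nuclear, but they resemble Rpph1 in sequence and the counting could split reads among the copies. Telomerase RNA, Terc, stood at 234 and 83.5 FPKM (1.48), and the vault RNA gene Vaultrc5 at 127 and 63.3 FPKM (0.99). Precursor ribosomal RNA, listed as Rn45s, was the nuclear extreme among genes other than small RNAs and predicted gene models, with a nuclear FPKM of 3040.1, a cytoplasmic FPKM of 180.5 and a difference of 4.07. The libraries were depleted of ribosomal RNA, so the level of Rn45s is what depletion left.

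Several of these RNAs differed more between the compartments of WT oocytes. Scarna2 had 361725 FPKM in WT nuclei and 3428 FPKM in WT cytoplasms, Rmrp stood at 2733 and 115, Rpph1 at 11847 and 156, and Scarna17 at 40468.5 and listed at 0. Vaultrc5 did not, at 7.63 and 11.05 FPKM in WT and 127 and 63.3 FPKM in MTR4-null. Scarna10 had a log2 difference of 6.24 in WT and 9.48 in MTR4-null, where its cytoplasm was listed at 0. The value of 9.48 therefore rests on the pseudocount. Of the 37 C/D snoRNAs, which were kept for their MTR4-null values, only 11 were above 0 in the WT nucleus. All 11 were nuclear by 2-fold in WT, and 0 of the 37 were cytoplasmic. Of the 33 H/ACA snoRNAs, 29 were nuclear by 2-fold in WT and 0 cytoplasmic, with 24 of the 33 listed at 0 in the WT cytoplasm. Malat1, a long noncoding RNA of nuclear speckles, stood at 181 and 8.63 FPKM in WT and at 173 and 69.6 FPKM in MTR4-null. Rn45s went the other way, with 5559 and 1016 FPKM in WT, a narrower split than in MTR4-null. How much nuclear material each cytoplasm sample held was not tested, and it cannot be told apart here from a change in where these RNAs lie.

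**Figure D3:**
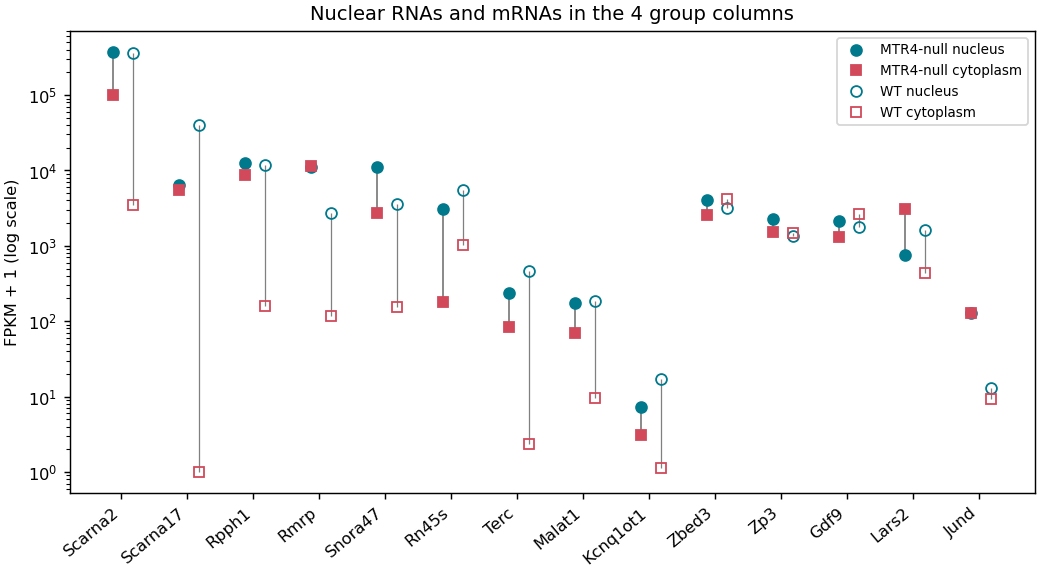
FPKM + 1 (log axis) of 14 genes in the 4 deposited group columns, with MTR4-null filled and WT open, nucleus as circles and cytoplasm as squares, joined by a line within each genotype. For Scarna2, Rpph1, Rmrp and Malat1 the WT line is longer than the MTR4-null line, for Rn45s it is shorter, and for Lars2 nucleus and cytoplasm change places.

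Of 9 long noncoding RNAs known as nuclear, 7 were higher in the MTR4-null nucleus, beside 84.7% of all genes. By 2-fold, 5 were nuclear and 0 cytoplasmic, which became 2 and 1 after centring, and the list median was 1.10. Besides Malat1, the 5 were the imprinted antisense RNAs Kcnq1ot1 (6.27 and 2.04 FPKM) and Airn (6.20 and 1.26), the Dlk1-Dio3 transcript Rian (5.50 and 0.83) and Tug1 (36.0 and 16.2). Pvt1 stood at 2.62 and 1.11 FPKM and Dleu2 at 3.75 and 2.70. Meg3, from the same imprinted region as Rian, stood at 2.78 and 3.97 FPKM, and Nespas at 0.886 and 1.90. Of 27 genes whose transcripts are known to keep introns in the nucleus, or that code for splicing factors of that kind, 5 (18.5%) were nuclear by 2-fold, close to the 18.7% of all genes, and 2 after centring. The list median was 0.70, and its largest values were those of Clk4, a kinase of splicing factors, at 9.43 and 1.02 FPKM and Srsf5, a splicing factor, at 69.2 and 21.2 FPKM.

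Most lists of maternal mRNAs lay close to the median of all genes, and that of maternal effect genes lay above it. The 10 zona pellucida and secreted factor genes had a median difference of 0.61. Zp3, a sperm-binding zona protein, stood at 2252 (nucleus) and 1540.1 FPKM (cytoplasm), and Gdf9, the oocyte growth factor, at 2133 and 1304. Zp2 at 2082 and 1020.3 FPKM was the only one of the 10 past 2-fold. Of 30 maternal effect genes 5 (16.7%) were at least 2-fold nuclear, and 0 after centring. The median of the 30 was 0.78, or 0.21 after centring. Dppa3, a guard of maternal methylation, stood at 606 and 288 FPKM, Zbed3, of the subcortical maternal complex, at 4109 and 2600 FPKM, and Figla, a transcription factor of zona genes, at 23.4 and 27.4 FPKM. Meiotic maturation genes had a median of 0.60 with 4 of 34 at least 2-fold nuclear, among them the chromosomal kinase Aurkb at 25.8 and 8.31 FPKM, while cyclin B1, Ccnb1, stood at 256 and 202 FPKM. Genes of mRNA storage and cytoplasmic polyadenylation had a median of 0.57, and translation factors 0.59. The medians of zona, meiotic, storage and translation genes lie at that of all genes. They turned slightly negative, to -0.10 at the lowest, under rescaling to the sum of other genes or quantile normalization. That of maternal effect genes was 0.155 at its lowest.

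Genes of the respiratory chain lay above the median of all genes. Of 75 oxidative phosphorylation genes, 28 (37.3%) were nuclear by 2-fold and 0 cytoplasmic, beside 18.7% and 2.02% of all genes. Their median was 0.85. The medians of complexes I, III, IV and V lay between 0.76 and 0.86, and that of the 4 complex II genes was 0.64. In complex I, Ndufb9 had a nuclear FPKM of 70.0 and a cytoplasmic FPKM of 16.6, Ndufa7 stood at 63.6 and 15.7, and Ndufv2 stood at 14.7 and 16.6. Other nuclear members were Uqcr11 of complex III (91.8 and 31.8 FPKM), Cox7c of complex IV (162 and 67.6) and Atp5g3 of ATP synthase (136 and 44.9). These are short transcripts: 62 of the 75 belong to the shortest 20% of protein-coding genes, of which 26.5% were at least 2-fold nuclear. The 87 ribosomal protein genes are as short, with 75 of 86 in that group. Of the 87, 15 (17.2%) were at least 2-fold nuclear, with a median of 0.64. After centring, 4 of the 75 oxidative phosphorylation genes were 2-fold nuclear, a share close to the 4.95% of all genes, and their median was 0.28.

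Rpl34, of the large ribosomal subunit, was the extreme of the ribosomal protein genes at 173 and 15.5 FPKM. Ribosomal protein genes have many processed copies, among which reads could be split. Replication-dependent histone genes, whose mRNAs end in a stem-loop and not a poly(A) tail, had a median of 0.65 but a wide spread. Of 56, 17 (30.4%) were at least 2-fold nuclear and 2 cytoplasmic, beside 18.7% and 2.02% of all genes. After centring these were 5 and 6, beside 4.95% and 6.40% of all genes. Hist1h1b stood at 44.0 and 8.30 FPKM, Hist1h4k at 175 and 52.3, Hist1h1a, the most abundant, at 1929 and 1233.7, and Hist1h2af at 0.509 and 5.83. Histone genes of a family are near-identical, so single members are uncertain. The 12 replacement histone genes had the same median of 0.65, with 2 at least 2-fold nuclear, H2afj (65.7 and 23.7 FPKM) and H1fx (82.6 and 33.1).

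The machinery that acts with MTR4 did not stand out. Of 27 exosome subunits and nuclear cofactors, 2 were at least 2-fold nuclear, the core subunits Exosc8 (38.4 and 13.8 FPKM) and Exosc7 (61.5 and 23.5), and 0 were cytoplasmic. The list median was 0.47, or between -0.18 and -0.09 under the 4 settings that rescale or centre the columns. Zcchc8, the zinc knuckle protein of the NEXT complex, stood at 80.5 and 54.5 FPKM, its RNA-binding partner Rbm7 at 59.5 and 37.3, and the nuclear catalytic subunit Exosc10 at 15.2 and 10.2. Cytoplasmic decay genes had a median of 0.65, with Lsm1, of the decapping activators, at 41.3 and 14.5 FPKM. Among 20 mRNA export genes 5 (25%) were at least 2-fold nuclear, beside 18.7% of all genes, and 0 after centring. The export receptor Xpo1 (33.0 and 12.2 FPKM) and the adaptor Alyref (106 and 41.2) led them. The median of the 20 export genes, 0.53, was -0.04 after centring.

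Immediate early genes, which are transcribed within minutes of a stimulus, lay on the cytoplasm side. Of 16 at 1 FPKM or more, 3 were cytoplasmic by 2-fold and 1 nuclear, beside 2.02% and 18.7% of all genes. The 3 were Zfp36 (1.89 and 5.93 FPKM), Jun (2.93 and 6.93) and the low Fos (0.0831 and 1.70), and the 1 was Junb (18.1 and 8.41). The list median was -0.24 against 0.57 for all genes, and it lay between -0.84 and -0.04 in the 9 other settings. Settings that centre or rescale the columns move differences down, and a changed pseudocount keeps the sign of each gene. The sign of this median therefore had little room to change. After centring, 7 of the 16 were at least 2-fold higher in the cytoplasm, beside 6.40% of all genes. Jund, the most abundant, stood at 125 and 129 FPKM, and Btg2, an antiproliferative gene, at 5.82 and 3.10. Dusp1, next to Jund in abundance, was higher in the nucleus, with a log2 difference of 0.83. In all, 5 of the 16 had the higher value in the nucleus. Most other members were under 10 FPKM in both columns, and Klf4 stood at 6.08 and 7.08 FPKM and Egr1 at 8.24 and 6.38. Among stress response genes, the pro-apoptotic factor Ddit3 (52.4 and 82.8 FPKM) and Chac1, which degrades glutathione (6.08 and 14.2 FPKM), lay on the same side, while Trib3 stood at 4.91 and 0.891 FPKM. The median of the 26 stress response genes was 0.42, and -0.14 after centring.

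**Figure D4:**
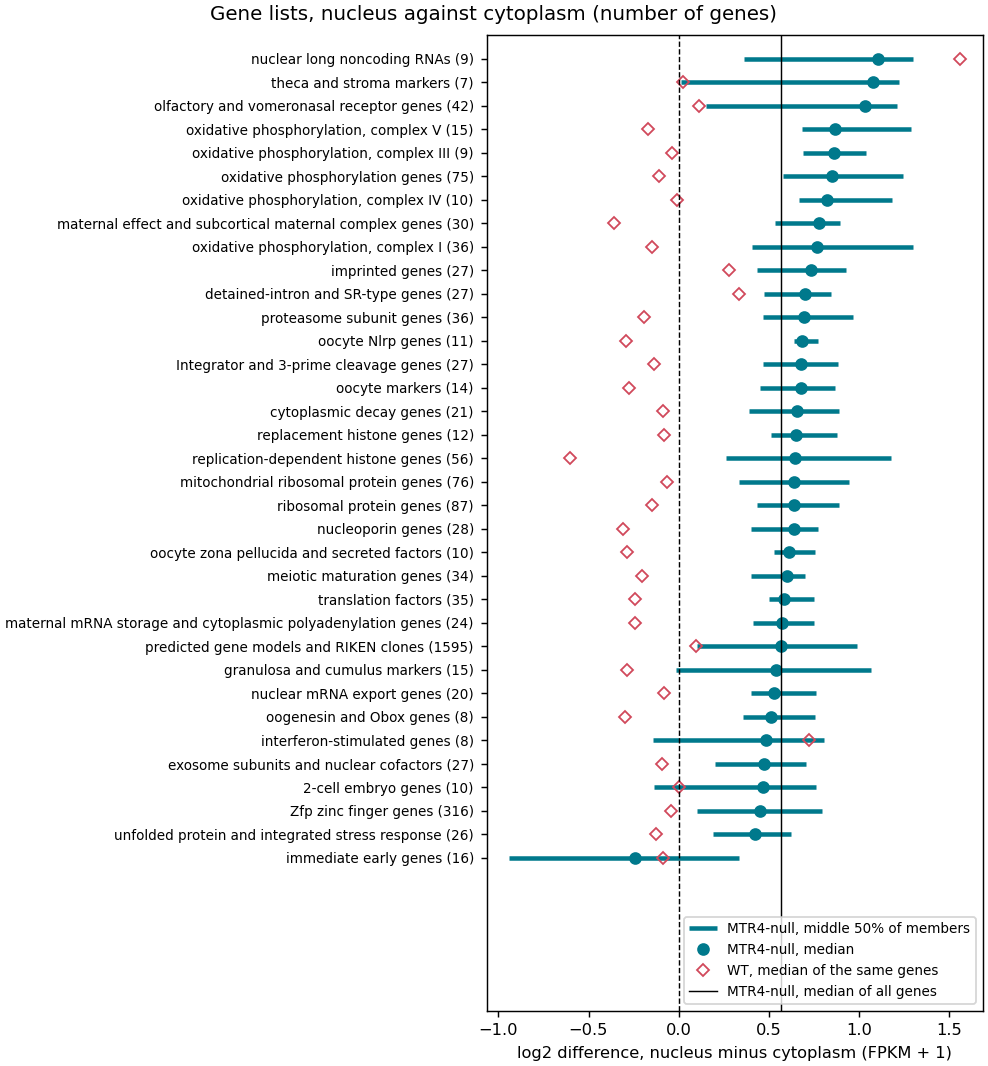
Gene lists with 7 or more genes are shown, without the lists of small RNAs and of snoRNA hosts. Filled circles are the median log2 difference (nucleus minus cytoplasm, FPKM + 1) in MTR4-null oocytes, with bars for the middle 50% of members. Open diamonds are medians of the same genes in WT, and the number of genes is in brackets. Most MTR4-null medians lie near the solid line at 0.57, and immediate early genes lie at -0.24 to its left. Farthest to its right lie nuclear long noncoding RNAs (1.10), theca and stroma markers (1.08) and olfactory and vomeronasal receptor genes (1.03). Oxidative phosphorylation lists lie to its right by less.

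The cytoplasm side held few abundant genes. Of the 262 genes at least 2-fold higher there, 155 (59.2%) were under 5 FPKM in the cytoplasm, and 36 reached 20 FPKM, 25 of them small RNA genes. Among 3252 genes with both columns at 20 FPKM or above, 315 were at least 2-fold nuclear and 20 cytoplasmic, and all but 2 of those 20 were small RNA genes. The remaining 2 were Lars2 and Atp6v0c. Lars2, the mitochondrial leucyl-tRNA synthetase, had 755 FPKM in MTR4-null nuclei and 3039 FPKM in their cytoplasms, the highest cytoplasmic value outside small RNAs. Atp6v0c, a proton pump subunit, stood at 23.3 and 85.1 FPKM, and its pseudogene copy Atp6v0c-ps2 at 238 and 48.6, so the place of either is uncertain. At lower levels the list was led by Amd1, of polyamine synthesis, at 0.0456 and 6.65 FPKM. Its near-identical copy Amd2 stood at 74.1 and 43.6 FPKM. The sperm protamine gene Prm1 (0.413 and 8.08 FPKM), Iqcf1 (2.21 and 17.4), the growth factor gene Pspn (0.891 and 6.60) and Trpt1, of tRNA splicing (0.772 and 5.47), followed.

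Besides Rn45s and Rpl34, the 12 largest nuclear differences outside small RNAs and predicted models were those of genes under 15 FPKM. Tstd1 stood at 11.9 and 0.128 FPKM, Hopx, a homeodomain cofactor, at 9.64 and 0.0742, Uchl4, a ubiquitin hydrolase, at 14.6 and 0.668, and Fgf22 at 10.6 and 0.380. The tetraspanin gene Cd81 stood at 11.9 and 0.796 FPKM. Tmsb15b1 (10.4 FPKM) and Esp24 (7.76 FPKM) were listed at 0 in the cytoplasm. Predicted gene models had the same median as all genes, 0.57, but more of them were past 2-fold on both sides. Of 1595, 391 (24.5%) were at least 2-fold nuclear and 65 cytoplasmic, beside 18.7% and 2.02% of all genes. After centring they were 117 and 162, beside 4.95% and 6.40% of all genes. The largest difference among them was that of LOC100302567, with 52.6 FPKM on the nuclear side and a cytoplasm listed at 0. Gm4532 led the cytoplasm side at 5.22 and 42.9 FPKM.

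The share of genes past 2-fold differed with abundance and structure. Over 11916 protein-coding genes, the cytoplasmic share went from 4.95% in the least abundant of 5 equal groups to 0.0839% in the most abundant, and the nuclear share from 20.8% to 12.7%, while the median went from 0.40 to 0.62. By transcript length the nuclear share went from 26.5% in the shortest of 5 groups to 10.4% in the longest, and the cytoplasmic share from 4.86% to 0.210%. Genes of 17 or more exons had a median of 0.62 and single-exon genes 0.49. Medians over 5 groups of GC content stayed between 0.54 and 0.58, and so did those over 5 groups of gene span. The middle 50% of genes spanned 1.05 on the log2 scale in the least abundant group and 0.389 in the most abundant.

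**Figure D5:**
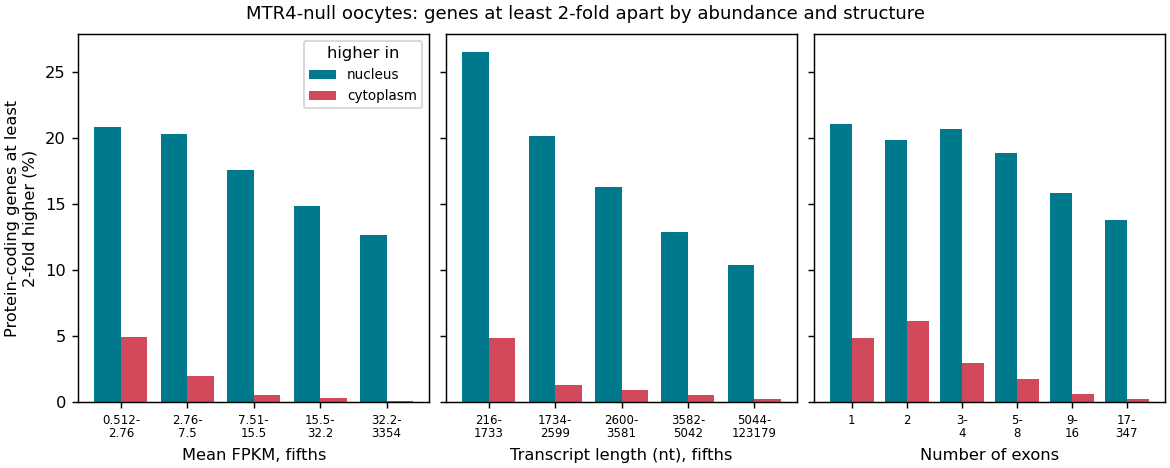
Percentage of protein-coding genes that differ by 2-fold or more towards the MTR4-null nucleus (blue bars) or cytoplasm (red bars), by 5 equal groups of mean FPKM, 5 equal groups of transcript length, and number of exons. Both percentages fall with abundance and with length, and the cytoplasmic share falls from 4.95% to 0.0839% across the groups of abundance.

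The order of genes between nucleus and cytoplasm in MTR4-null was little like that in WT. Over the 12998 genes, Pearson's r of the log2 differences was 0.10, and it was 0.14 when only the 2606 genes with 20 FPKM or above in each of the 4 columns were taken. The genes are not independent. The WT median over the same genes was -0.08, with 1176 genes (9.05%) at least 2-fold nuclear and 581 (4.47%) cytoplasmic. Of the 2428 genes nuclear in MTR4-null, 328 (13.5%) were nuclear in WT and 141 (5.81%) were cytoplasmic in WT. Of the 262 cytoplasmic in MTR4-null, 23 (8.78%) were cytoplasmic in WT and 35 (13.4%) were nuclear in WT. Some genes kept their side in both, also after centring in MTR4-null and with 20 FPKM or above in each genotype's higher column. On the nuclear side these were 36 small RNA genes, 7 predicted models and 11 others, among them Tmem38b, an ion channel gene, at 1261 and 316 FPKM in MTR4-null and 651 and 135 in WT, and Dcdc2c at 132 and 34.2 FPKM in MTR4-null and 58.9 and 3.08 in WT. On the cytoplasmic side they were Atp6v0c and 2 microRNA genes. Some of the 36 small RNA genes, such as Snord8, Snord92, Snord49a and Mir1949, were listed at 0 in the MTR4-null cytoplasm. The filter fixed the side of those in MTR4-null. The number of genes that met the FPKM limit is not given, so these counts are not shares.

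MicroRNA genes were measured here as hairpin loci and not as mature microRNA. The table lists 615, of which 110 passed 1 FPKM, and 79 were nuclear by 2-fold and 21 cytoplasmic. The cytoplasm was listed at 0 for 60 and the nucleus for 7, so the filter fixed the side of these. Among the other 43 loci, 19 were nuclear by 2-fold and 14 cytoplasmic, with a median of 0.33, below the 0.57 of all genes. Of the 75 in a host gene on the same strand, 37 overlap an exon of it, so reads of the host could count for the locus. Mir3074-2 was listed at 0 in the nucleus and at 809.6 FPKM in the cytoplasm, and Mir1247 stood at 138 and 1483 FPKM. At the other end, Mir1949 had 751 nuclear FPKM and was listed at 0 in the cytoplasm.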

How the data were processed

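The authors deposited 1 FPKM table with 4 pooled columns, and its unnamed last row, which sums the others and holds 50% of the summed FPKM, was left out. TopHat2 2.1.1, Cufflinks 2.2.1 and mm9 are named per the submitters' processing notes, without settings. Per the labels' protocols, ribosomal RNA was depleted and paired reads had 150 bp. Of values above 0, 56.0% in the MTR4-null nucleus and 39.0% in the cytoplasm have the decimals of a mean of 3 values, although the labels list 2 libraries for each. How many values each mean rests on is therefore uncertain, and read depth is unknown.

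Genes with FPKM of at least 1 in either MTR4-null column were kept, and differences were taken with a pseudocount of 1, which understates those of low genes. Named genes were, with 5 FPKM or above in the higher column, the 12 largest differences in each direction, the 4 largest among small RNA genes and among predicted models, up to 3 extremes and 3 most abundant members of each list, the 10 most abundant genes per column, and Skiv2l2. Lists of up to 30 members could be named in full. Other names were chosen after their values were seen, and the members and lists were chosen with earlier results of these data known. Lengths, exons, GC and sequences came from GENCODE M21 (GRCm38), matched by symbol for 12817 genes (98.6%), and no coordinates were joined to the mm9 table. The values of 1 gene are not reported here. Counting was tested on simulated data. Python 3.11.15, numpy 2.4.6, pandas 2.3.3, matplotlib 3.10.9 and Biopython 1.88 were used. Alternatives covered the pseudocount, the filter on low values and the scaling of the columns. As the table has 1 column per group, no test was run.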

Additional observations from a re-analysis of the deposited data

Results flagged for a closer look

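For 9 genes with 20 FPKM or above in each genotype's higher column, nucleus and cytoplasm changed places between MTR4-null and WT: they were at least 2-fold apart in opposite directions, also after centring in MTR4-null. The difference between genotypes was not tested, since each group has 1 column. The number of genes that met the FPKM limit is not given, so the 9 are a count and not a share. On the cytoplasm side in MTR4-null stood Snora7a (log2 difference -3.45 in MTR4-null, 1.97 in WT), Mir1901 (-2.65 and 4.45), Lars2 (-2.01 and 1.87), Snord15a (-1.69 and 6.68) and Snord22 (-1.17 and 7.46). On the nuclear side in MTR4-null stood the integrin-binding protein gene Cib1 (1.86 in MTR4-null, -1.11 in WT), the translation initiation factor gene Eif2b2 (1.88 and -1.29), the mitochondrial fission gene Fis1 (2.73 and -1.14) and Mir22 (4.72 and -5.34). Snora7a, Snord22 and Mir1901 overlap an exon of their host gene, so reads of the host could count for them. Lars2 has the highest levels of these outside small RNAs, at 755 FPKM in the MTR4-null nucleus, 3039 in the MTR4-null cytoplasm, 1598 in the WT nucleus and 436.5 in the WT cytoplasm. Fis1 stood at 40.5, 5.28, 9.07 and 21.1 FPKM in the same order.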

How the results depend on the processing

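The main counts were 2428 nuclear and 262 cytoplasmic genes past 2-fold. They became 3381 and 500 with a pseudocount of 0.1, 837 and 43 with a pseudocount of 5, 1740 and 107 with FPKM of at least 1 in both columns, and 1807 and 107 with FPKM of at least 5 in either column. Leaving out the filter could not change them, since with a pseudocount of 1 a gene under 1 FPKM in both columns cannot reach 2-fold. Scaling moved both: 643 and 832 after centring on the median of the genes kept, 644 and 830 after centring on genes at 20 FPKM or more in both columns, 822 and 670 after rescaling to the sum of genes other than small RNA genes, and 783 and 706 after quantile normalization. Of the list medians under these settings 102 moved and 318 stayed. No paired analysis was possible because each group is 1 pooled column with no replicate number, and for the same reason leaving out libraries and the replicate block were not run. With depth unknown, a value listed at 0 has no upper limit here.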

Other observations

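Of 1437 olfactory and vomeronasal receptor genes in the table, 42 reached 1 FPKM in an MTR4-null column. In the nucleus 33 of the 42 had the higher value, beside 84.7% of all genes. By 2-fold, 22 (52.4%) were nuclear and 4 cytoplasmic, beside 18.7% and 2.02% of all genes, which became 5 and 8 after centring. The median log2 difference was 1.03 (0.46 after centring) against 0.57 over all genes. Olfr613 stood at 32.9 FPKM in the MTR4-null nucleus and 9.04 in the cytoplasm, and at 89.5 and 0.149 FPKM in WT. The vomeronasal receptor gene Vmn1r58 stood at 43.5 and 11.1 FPKM in MTR4-null and 112 and 0.134 FPKM in WT. Among 316 genes with a Zfp symbol, of which 312 are protein-coding, 46 (14.6%) were at least 2-fold nuclear and 2 cytoplasmic, beside 18.7% and 2.02% of all genes. After centring 6 and 16 were, and the list median was 0.45 (-0.12 after centring). Zfp488 stood at 70.7 and 15.7 FPKM in MTR4-null and 200.3 and 0.356 FPKM in WT.

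By annotated class, lincRNA genes had a median difference of 0.63 over 219 genes, antisense genes 0.56 over 194 and processed transcripts 0.54 over 130, beside 0.56 over protein-coding genes. No source used here says whether the authors' counting used strand, so antisense genes cannot be told apart from the genes they overlap. Imprinted genes had a median of 0.73 over 27 genes, with 5 (18.5%) at least 2-fold nuclear, close to the 18.7% of all genes. The 1 cytoplasmic by 2-fold was the growth inhibitor gene Cdkn1c, at 3.42 and 10.7 FPKM. Proteasome subunit genes had a median of 0.69 over 36 genes, with Psmd6 at 95.2 and 28.5 FPKM and the immune subunit Psmb10 at 2.61 and 8.82 FPKM.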
